A study of Mus musculus with 6 samples.

Results

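Cathepsins are the main proteases of the lysosome, and their genes were followed here in mouse CD4+ T cells cultured with and without ALX-5407, a compound that blocks the glycine transporter GlyT1. The genes were taken by name from the gene count data. They were 9 protease genes, Ctsa, Ctsb, Ctsc, Ctsd, Ctsl, Ctss, Ctsw, Ctsz and Lgmn, together with the inhibitor gene Cst3, which makes 10 of the 54532 genes counted. All 10 were abundant enough to be tested, as were 15938 genes in all. CD4+ T cells had been isolated by negative selection on magnetic beads from the spleens of male C57BL/6 mice, activated through CD3 and CD28 and grown for 72 h under Th1 conditions, the setting (IL-2, IL-12 and antibody against IL-4) in which they turn into producers of IFN-γ. The control group held 3 cultures with vehicle (0.1% DMSO) and the ALX-5407 group 3 cultures with 500 nM ALX-5407. The sample labels call the cultures biological replicates without tying them to single animals, so the p-values measure the spread between these cultures. The series description gives a drug exposure of 72 h. The study's methods for RNA sequencing give a shorter one. Its culture methods and a figure legend instead describe cultures with the compound that were harvested after 72 h.

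Most cathepsins are made as inactive precursors, tagged with mannose 6-phosphate in the Golgi and carried to the acidic endosomes and lysosomes. There they are activated and degrade proteins. This description is not meant for the product of Ctsw, whose place in the cell was not measured here. Of the cathepsin genes here, Ctsb, Ctsc, Ctsl, Ctss, Ctsw and Ctsz encode members of the papain family of cysteine proteases. Ctsd is an aspartic protease and Ctsa a serine carboxypeptidase. Legumain, the product of Lgmn, cuts after asparagine and processes several cathepsin precursors, and cystatin C, the product of Cst3, is a secreted inhibitor of cysteine cathepsins. In lymphocytes, Ctsc activates the granzymes, Ctsw is known as a gene of cytotoxic cells, and Ctss and Ctsl are best known for degrading the invariant chain of MHC class II molecules in antigen-presenting cells.

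The libraries held 30801753 to 36727788 counted reads. Levels are given in CPM, read counts scaled to a common library size with TMM factors. Differences were tested in edgeR with a quasi-likelihood fit, and p-values were adjusted over all 15938 genes by the Benjamini-Hochberg procedure. A gene is said to have risen or fallen where the adjusted p was under 0.05. An exact permutation test with 3 cultures on each side has a smallest two-sided p of 0.1, so none was used. The labels gave no batch.

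The 10 genes did not move as a block. Lgmn, Ctsl and Ctsd rose with ALX-5407, Ctsw, Ctss and Cst3 fell, and Ctsb, Ctsz, Ctsc and Ctsa did not pass the threshold. The 3 that rose stand beside 24.5% of all genes tested that rose, and the 3 that fell beside 23.2% that fell. For either direction, 6 of 10 genes stand beside 47.7% of all genes, a share near enough to the background that the count is no result about these genes. Their median log2 fold change was 0.037, against 0.0053 over all genes tested. Past a 2-fold change, which the study's methods also ask for, 1 of the 10 genes fell (Ctsw), beside 6.68% of all genes tested, and 0 rose, beside 3.36%. The levels of the groups did not overlap for 7 of the 10 genes, against 55.5% of all genes tested.

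**Figure D1:**
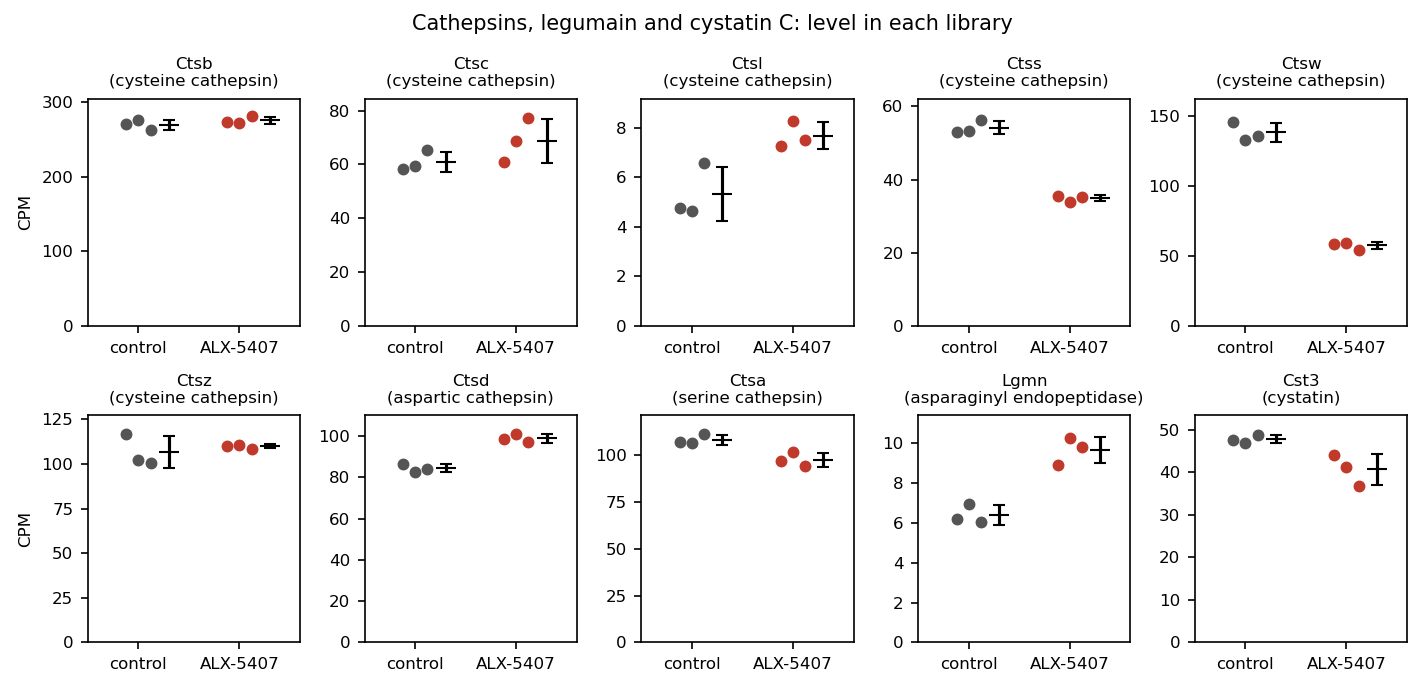
Level of each gene in CPM (vertical axes, linear and starting at 0, each with its own range) in the 3 control libraries (grey points) and the 3 ALX-5407 libraries (red points), with the group mean and SD as a black bar. Ctsw, Ctss, Cst3 and Ctsa lie lower in all 3 ALX-5407 libraries, Ctsa without passing the threshold. Ctsd, Ctsl and Lgmn lie higher in all 3. The points of Ctsb, Ctsz and Ctsc overlap between the groups.

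The promoters of the 3 genes that rose are shown here because each held the same short motif, and that of Ctss because it fell and held another. They were thus picked for display by both result and match. The window of Ctsa, which also held the first motif but did not pass the threshold, is not shown. The windows reach from 250 bases before to 50 bases after an annotated start site and come from RefSeq on GRCm38.p6, which held 10 windows for 8 of the 10 genes and none for Ctsb and Ctsw. Capitals mark the letters CACGTG, the palindromic E-box that lies at the core of the element bound by TFEB and its relatives at lysosomal genes. In the Ctss window they mark GAAA, any 2 bases and GAAA again, the repeat recognised by interferon regulatory factors.
Ctsd, chr7:142387778-142388077, minus strand: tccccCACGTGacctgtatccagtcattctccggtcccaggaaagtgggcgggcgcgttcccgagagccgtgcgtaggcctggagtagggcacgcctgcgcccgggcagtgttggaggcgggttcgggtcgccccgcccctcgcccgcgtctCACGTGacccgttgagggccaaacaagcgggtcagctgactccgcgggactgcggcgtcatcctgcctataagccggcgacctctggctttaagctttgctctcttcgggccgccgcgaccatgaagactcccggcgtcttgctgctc
Lgmn, chr12:102439043-102439342, minus strand: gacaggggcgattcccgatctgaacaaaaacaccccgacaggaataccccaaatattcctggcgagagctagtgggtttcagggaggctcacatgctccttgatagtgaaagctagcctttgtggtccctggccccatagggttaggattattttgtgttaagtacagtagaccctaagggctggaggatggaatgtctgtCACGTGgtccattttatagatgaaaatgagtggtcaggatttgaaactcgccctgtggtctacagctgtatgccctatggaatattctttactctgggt
Ctsl, chr13:64370471-64370770, minus strand: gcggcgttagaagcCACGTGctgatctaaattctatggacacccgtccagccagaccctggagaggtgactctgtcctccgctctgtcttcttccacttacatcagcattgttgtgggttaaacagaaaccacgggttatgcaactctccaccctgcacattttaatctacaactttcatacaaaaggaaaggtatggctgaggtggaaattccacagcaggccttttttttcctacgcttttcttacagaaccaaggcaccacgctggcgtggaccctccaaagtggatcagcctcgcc
Ctss, chr3:95526536-95526835, plus strand: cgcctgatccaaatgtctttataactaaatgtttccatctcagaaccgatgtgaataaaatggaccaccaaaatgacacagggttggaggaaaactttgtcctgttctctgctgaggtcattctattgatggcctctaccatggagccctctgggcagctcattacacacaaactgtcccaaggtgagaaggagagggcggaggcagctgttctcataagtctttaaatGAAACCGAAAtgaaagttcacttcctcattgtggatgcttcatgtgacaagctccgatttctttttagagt

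Each of the 3 genes that rose held CACGTG in a window. In Ctsd it began 245 and 98 bases before the start site, in Ctsl 236 bases before, and in Lgmn 49 bases before the downstream one of its 2 annotated start sites, whereas the window of the other start site of Lgmn did not hold it. Ctsa, which did not pass the test, held it as well, in the window of 1 of its 2 start sites, at 12 bases before and 5 bases after the start. The motif stood in 4 of the 10 windows, against 7.15% of 32851 windows of all genes. The longer palindrome with GT before and AC after CACGTG was in 0 of the 10 windows and in 0.326% of all windows. The spaced GAAA repeat, searched on both strands, was among the 10 windows in that of Ctss only, 21 bases before the start site, and in 3.44% of all windows. The T-box letters TCACACCT, also searched on both strands, were in 0 of the 10 windows and in 1.28% of all. The longer palindrome contains CACGTG, and the motifs were chosen with the values of these genes known, so the matches are a description of the windows and not of factor binding.

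Ctsw, which encodes cathepsin W (ENSMUSG00000024910, chromosome 19, 5465240 to 5468498, minus strand), showed the largest change of the 10 genes. Its level was 146, 133 and 136 CPM in the control libraries and 58.6, 59.7 and 54.5 CPM in the ALX-5407 libraries. The lowest control library was thus still far above the highest treated one. The mean fell from 138 ± 6.57 to 57.6 ± 2.76 CPM (SD, n = 3 each), a 2.40-fold decrease with a log2 fold change of -1.27 (standard error, SE, 0.0735, adjusted p = 2.27e-09 in edgeR). By its p-value Ctsw ranked 52nd among the 15938 genes tested. Over the 14 alternative settings its log2 fold change stayed between -1.32 and -1.21. The ratio of Ctsw to Ctsb reads within a library, which does not depend on scaling between libraries, went from 0.513 ± 0.0279 to 0.209 ± 0.0134 (SD, n = 3 each). Exons of Fibp, a gene on the opposite strand, cover 9 bases of Ctsw exons, and whether reads were counted by strand was not given in the sources used here.

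NK cells and CD8 T cells are known to express Ctsw, so their markers are given beside its fall. The 4 NK cell markers had at most 9 reads in any library, and none of them was abundant enough to be tested. The summed level of the CD8 T cell markers Cd8a and Cd8b1 was 4.75 to 4.85 RPKM (CPM divided by the gene length in kilobases) in control libraries and 3.94 to 4.77 RPKM in treated ones. Cd8a showed a log2 fold change of -0.80 (adjusted p = 0.0111 in edgeR), whereas Cd8b1 had -0.0070 (adjusted p = 0.976 in edgeR). The part of these cells in the Ctsw result was not tested, and in such bulk samples fewer cells of a type and less RNA per cell cannot be told apart.

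Ctss (ENSMUSG00000038642, chromosome 3, 95526786 to 95556403, plus strand), the cathepsin that stays active at neutral pH, also fell. Control libraries gave 52.9, 53.4 and 56.3 CPM and ALX-5407 libraries 35.4, 33.9 and 35.1 CPM, with no overlap and little spread in either group. Its log2 fold change was -0.64 (SE 0.076, adjusted p = 4.23e-06 in edgeR), a 1.56-fold decrease. It lay between -0.69 and -0.58 in the 14 alternative settings and passed the threshold in each. Within libraries, the ratio of Ctss to Ctsb reads was 0.201 ± 0.0116 without and 0.126 ± 0.00284 with ALX-5407 (SD, n = 3 each).

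Cst3 (ENSMUSG00000027447, chromosome 2, 148871722 to 148875692, minus strand), the gene of the inhibitor cystatin C, had 47.7, 47.0 and 48.9 CPM in control libraries. In ALX-5407 libraries it had 44.1, 41.2 and 36.9 CPM, all below the controls, but with a wider spread. On the log2 scale the difference was -0.23 (SE 0.0831, adjusted p = 0.0300 in edgeR), a fall of 1.17-fold. This call did not hold when control replicate 1 (-0.24, adjusted p = 0.0612 in edgeR), ALX-5407 replicate 2 (-0.23, adjusted p = 0.0807 in edgeR) or ALX-5407 replicate 3 (-0.16, adjusted p = 0.154 in edgeR) was left out. It was also lost with library sizes alone as the scale (-0.17, adjusted p = 0.103 in edgeR) and without a filter on low counts (-0.22, adjusted p = 0.0531 in edgeR).

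Ctss and Cst3 are abundant in macrophages and dendritic cells, so the markers of these cells are given beside them. The summed level of the 10 macrophage or monocyte markers was 12.2 to 16.8 RPKM in control and 4.16 to 4.87 RPKM in treated libraries, nearly all of it from Cd68, a lysosomal membrane gene. Without Cd68 the sums were 0.309 to 0.489 and 0.151 to 0.373 RPKM, C1qa and C1qb had 0 reads in every library, and Lyz2, Csf1r and Adgre1 had at most 15. The 8 dendritic cell markers summed to 1.35 to 1.6 RPKM in control and 1.05 to 1.52 RPKM in treated libraries, with Siglech and Cd209a at 0 in every library. Mrc1, the other tested marker of the macrophage list, fell from 35 to 48 reads in control libraries to 13 to 25 reads in treated ones (log2 fold change -1.32, adjusted p = 0.00879 in edgeR). Mrc1 was named here after its values were seen. The part of such cells in the Ctss and Cst3 results was not tested.

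Lgmn (ENSMUSG00000021190, chromosome 12, 102394084 to 102439813, minus strand), the legumain gene, showed the largest rise of the 10. Its levels were low, 6.17, 6.95 and 6.04 CPM in control libraries against 8.92, 10.2 and 9.81 CPM with ALX-5407. Every treated library exceeded every control library. On the log2 scale the rise was 0.60 (SE 0.135, adjusted p = 0.00165 in edgeR), a 1.51-fold increase, and it lay between 0.54 and 0.66 in the 14 alternative settings, each past the threshold. The counts behind these levels were 186 to 218 reads in control and 315 to 382 reads in treated libraries.

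Ctsl (ENSMUSG00000021477, chromosome 13, 64359337 to 64370890, minus strand), which encodes cathepsin L, was the least abundant of the 10 genes by group mean. Control libraries held 4.76, 4.66 and 6.60 CPM and treated libraries 7.25, 8.28 and 7.50 CPM. In control replicate 3 the level of Ctsl was above that of Lgmn, at 6.04 CPM. For Ctsl the groups did not overlap, although control replicate 3 came close to the lowest treated library. Its log2 fold change was 0.53 (SE 0.162, adjusted p = 0.0135 in edgeR), a 1.44-fold increase resting on 146 to 203 reads in control and 256 to 309 reads in treated libraries. The call was lost without control replicate 1 (0.44, adjusted p = 0.0696 in edgeR), control replicate 2 (0.43, adjusted p = 0.0675 in edgeR) or ALX-5407 replicate 2 (0.47, adjusted p = 0.0516 in edgeR). Ctsl and Ctss, both proteases of the invariant chain, moved in opposite directions, and the ratio of their reads within a library went from 0.0982 ± 0.0165 to 0.221 ± 0.0209 (SD, n = 3 each). Antisense gene Gm47123, which had no reads, overlaps 26.8% of the exon bases of Ctsl. Stretches of its transcripts also match transcripts of other genes at 95% identity or more, and how reads with several matches were counted was not given in the sources used here.

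Ctsd (ENSMUSG00000007891, chromosome 7, 142375911 to 142388038, minus strand), the aspartic protease, rose by a small but even margin. Its levels were 86.4, 82.7 and 84.2 CPM without and 98.7, 101 and 96.9 CPM with ALX-5407. The gap between the groups was wider than the range within either of them. This made a log2 fold change of 0.23 (SE 0.0681, adjusted p = 0.0112 in edgeR), a 1.17-fold increase, and the ratio of Ctsd to Ctsb reads went from 0.313 ± 0.0115 to 0.359 ± 0.0129 (SD, n = 3 each). Without control replicate 2 the adjusted p was 0.0545 and without ALX-5407 replicate 2 it was 0.0559 in edgeR, with log2 fold changes of 0.20 and 0.22. Gene Gm49369, on the same strand, shares 34.4% of the exon bases of Ctsd and was listed with no reads.

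The other 4 genes did not pass the threshold. Ctsb (ENSMUSG00000021939, chromosome 14, 63122462 to 63145923), the cathepsin B gene and the one with the most reads, had 271, 276 and 263 CPM without and 274, 273 and 281 CPM with ALX-5407. Its log2 fold change was 0.030, with a 95% interval from -0.11 to 0.17 (adjusted p = 0.743 in edgeR), so a change of the size seen for Ctss lies outside the interval. Exons of Fdft1, on the opposite strand and with up to 5009 reads, overlap 12.8% of the exon bases of Ctsb. Ctsz (ENSMUSG00000016256, chromosome 2, 174427493 to 174439039), a carboxypeptidase, had 117, 102 and 101 CPM in control and 110, 111 and 109 CPM in treated libraries. Control replicate 1 lay above all others, and the log2 fold change was 0.044 with an interval from -0.11 to 0.20 (adjusted p = 0.663 in edgeR).

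Ctsc (ENSMUSG00000030560, chromosome 7, 88278085 to 88310888), the activator of granzymes, had 58.4, 59.4 and 65.3 CPM in control libraries and 60.7, 68.6 and 77.1 CPM in treated ones. Relative to the mean, its treated libraries differed more among themselves than those of the other 9 genes. Its log2 fold change was 0.17, with a 95% interval from -0.014 to 0.36 (adjusted p = 0.119 in edgeR). Without ALX-5407 replicate 1 it was 0.26 (adjusted p = 0.0351 in edgeR), and with library sizes alone as the scale it was 0.23 (adjusted p = 0.0476 in edgeR). Ctsa (ENSMUSG00000017760, chromosome 2, 164832873 to 164841032), the serine carboxypeptidase that also protects other lysosomal enzymes, had 107, 106 and 111 CPM without and 96.6, 102 and 93.9 CPM with ALX-5407. The groups did not overlap, yet the log2 fold change of -0.15, with an interval from -0.30 to -0.0036, had an adjusted p of 0.0858 in edgeR. It passed under upper quartile scaling (-0.20, adjusted p = 0.0238 in edgeR) and under a stricter filter on low counts (-0.17, adjusted p = 0.0446 in edgeR). Exons of Pltp and Neurl2, both on the opposite strand, overlap 10.5% and 6.9% of the exon bases of Ctsa and had at most 50 and 68 reads.

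**Figure D2:**
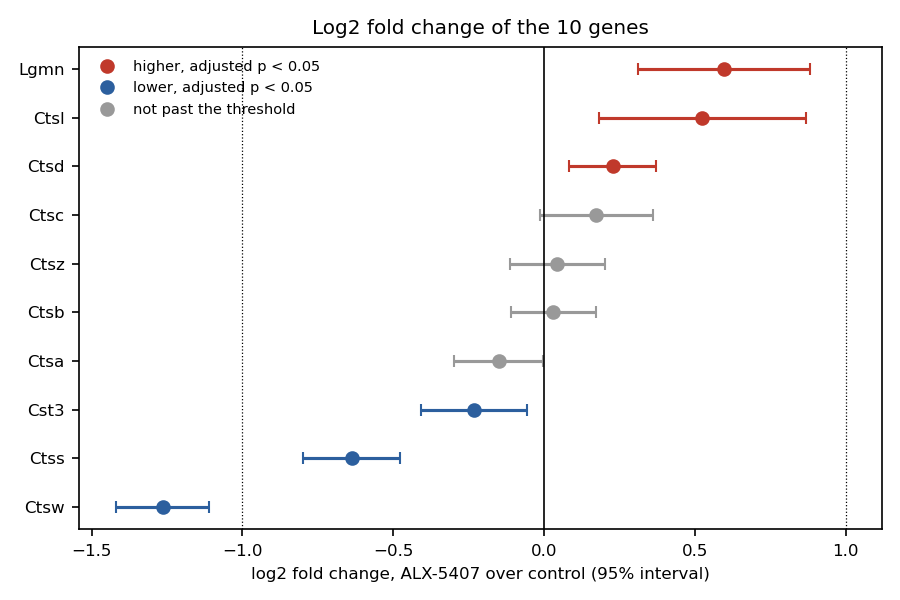
Log2 fold change of the 10 genes, ALX-5407 over control (horizontal axis), with 95% intervals from the edgeR fit of 3 against 3 libraries. Red and blue points passed an adjusted p of 0.05, grey points did not, and dotted lines mark a 2-fold change. The values run from -1.27 for Ctsw to 0.60 for Lgmn.

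Per gene length, the genes spanned a wide range of levels. With the lengths given beside the counts, the control order ran from Ctsw at 112 ± 5.33 RPKM through Ctsz at 73.9 ± 6.20, Ctsb at 44.6 ± 1.10, Ctss at 39.9 ± 1.38, Cst3 at 37.8 ± 0.756 and Ctsd at 35.9 ± 0.782 RPKM (SD, n = 3 each). Below them stood Ctsa at 22.9 ± 0.580, Ctsc at 10.5 ± 0.643, Lgmn at 2.75 ± 0.212 and Ctsl at 0.823 ± 0.168 RPKM (SD, n = 3 each). No neighbours in this order overlapped in their 3 libraries, but Ctss, Cst3 and Ctsd were separated by gaps as small as the spread within each gene. With ALX-5407, Ctsz came first at 76.2 ± 0.765 RPKM, and Ctsw at 46.7 ± 2.24 and Ctsb at 45.6 ± 0.767 RPKM overlapped. Ctsd at 42.1 ± 0.853 RPKM then stood above Cst3 at 32.2 ± 2.89 and Ctss at 25.7 ± 0.601 RPKM (SD, n = 3 each). The place of Ctsd is less certain, because Gm49369 shares 34.4% of its exon bases on the same strand. How reads on these shared bases were assigned was not examined. The order also depends on the length that is used. With merged exons of GENCODE M21, Ctsw was 1887 bases long in place of 1232, and its control level of 73.3 ± 3.48 RPKM overlapped that of Ctsz. With the length of the principal coding transcript, an alternative chosen after seeing the data, the control means were 55.6 RPKM for Cst3, 56.9 RPKM for Ctsb and 24.5 RPKM for Ctsc, and the libraries of Cst3 and Ctsb overlapped.

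The mix of the 10 genes changed mainly through Ctsw. Its share of their summed RPKM was 30.1%, 29.0% and 29.2% in control libraries and 15.4%, 15.6% and 14.7% in treated ones. With the merged exon length of Ctsw the shares were 21.4% ± 0.451 and 10.5% ± 0.362 (SD, n = 3 each). The share of Ctsz went from 19.4% ± 1.10 to 24.9% ± 0.145 and that of Ctsb from 11.7% ± 0.469 to 14.9% ± 0.486 (SD, n = 3 each), although neither gene changed in level beyond the threshold. The summed level of the 6 cysteine cathepsins was 294, 275 and 277 RPKM without and 207, 208 and 206 RPKM with ALX-5407. With merged exons as lengths it was 253, 237 and 239 RPKM without and 190, 192 and 191 RPKM with the compound. Without Ctsw, the other 5 summed to 176, 167 and 167 RPKM without and 159, 160 and 162 RPKM with ALX-5407. By principal transcript length these 5 summed to 201, 193 and 194 RPKM without and 186, 188 and 193 RPKM with ALX-5407. The gap between the groups in this sum thus depends on the length used.

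**Figure D3:**
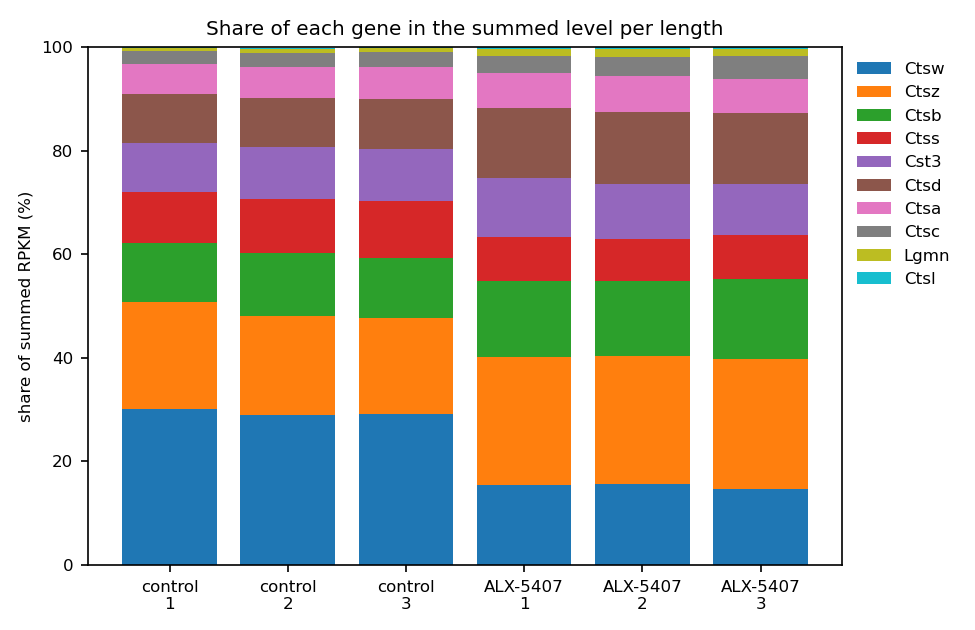
Share of each gene in the summed RPKM of the 10 genes (vertical axis, percent) for each of the 3 control and 3 ALX-5407 libraries, as stacked bars. The Ctsw segment at the base covers 29.0% to 30.1% of the control bars and 14.7% to 15.6% of the treated bars.

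Among cathepsin genes outside the 10, few were expressed. Of 14 such genes, 6 had no read in any library and 4 were tested. Ctsf, a cysteine cathepsin, fell (log2 fold change -0.59, adjusted p = 0.0112 in edgeR), but not without control replicate 1 (adjusted p = 0.0888 in edgeR) or ALX-5407 replicate 1 (adjusted p = 0.0509 in edgeR). Ctso, Ctse and Ctsk had log2 fold changes of 0.15, 0.22 and -0.092 and did not pass. They were named after their values were seen.

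Of the other inhibitors of the cystatin family, 17 genes were listed, 15 were found under their names, 3 were tested and 2 fell. The share that fell, 66.7% beside 23.2% of all genes tested, rests on only 3 genes. Cst7, which encodes cystatin F, an inhibitor of Ctsc in cytotoxic cells, had 90.0, 88.4 and 78.8 CPM without and 52.7, 59.6 and 56.5 CPM with ALX-5407. All treated libraries lay below all control libraries, with a log2 fold change of -0.61 (SE 0.0791, adjusted p = 1.05e-05 in edgeR). Cstb, the intracellular inhibitor cystatin B, showed a log2 fold change of -0.23 (adjusted p = 0.0252 in edgeR), the same size as that of Cst3. The Cstb call was lost without control replicate 3 or any 1 of the ALX-5407 replicates (adjusted p from 0.0544 to 0.0904 in edgeR) and with library sizes alone as the scale (adjusted p = 0.0998 in edgeR).

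The other lysosomal peptidases split as well, with 16.7% of those tested higher and 33.3% lower, beside 24.5% and 23.2% of all genes tested. Of 6 tested, Scpep1, a serine carboxypeptidase, rose (log2 fold change 0.38, adjusted p = 0.000931 in edgeR). Tpp1, the tripeptidyl peptidase that is mutated in a neuronal ceroid lipofuscinosis, fell (-0.48, adjusted p = 0.000122 in edgeR), as did Prcp, a prolyl carboxypeptidase (-0.33, adjusted p = 0.00331 in edgeR).

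The soluble lysosomal hydrolases that are not proteases moved in both directions. Of 33 genes for glycosidases, lipases, sulfatases and their activators, 14 rose and 7 fell, or 42.4% and 21.2% beside 24.5% and 23.2% of all genes tested, and the median log2 fold change was 0.18. Ppt1, a palmitoyl-protein thioesterase, went from 43.8 to 45.7 CPM over the control libraries to 76.3 to 90.8 CPM over the treated ones, a log2 fold change of 0.88 (adjusted p = 2.58e-07 in edgeR). Gusb, the β-glucuronidase gene, and Naglu, a heparan sulfate enzyme, rose by 0.76 (adjusted p = 3.41e-06) and 1.10 (adjusted p = 4.37e-06 in edgeR) on the log2 scale. In the other direction, Gla, the α-galactosidase A gene, showed a log2 fold change of -1.35 (adjusted p = 1.73e-08), Galc -0.99 (adjusted p = 1.09e-07) and the cholesterol-binding Npc2 -0.78 (adjusted p = 1.44e-07 in edgeR).

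Genes of the lysosomal membrane and of lysosomal acidification were called in both directions. Of 15 tested membrane protein genes, 6 fell and 3 rose, or 40% and 20% beside 23.2% and 24.5% of all genes tested, and the median log2 fold change was -0.11. Cd68, Cd63 and the iron transporter Slc11a2 had log2 fold changes of -1.75, -1.25 and -0.92 (adjusted p of 7.26e-08, 9.46e-06 and 8.60e-08 in edgeR). The 3 that rose were Slc17a5, Scarb2 and Lamp2, with log2 fold changes of 0.54, 0.25 and 0.20 (adjusted p of 0.0213, 0.0245 and 0.0475 in edgeR). None of the 3 rises held without control replicate 1, control replicate 2 or ALX-5407 replicate 3. The Scarb2 call was also lost under upper quartile scaling (adjusted p = 0.0741 in edgeR). The Lamp2 call was lost in 9 of the 14 alternative settings, among them scaling by RLE factors (adjusted p = 0.0609 in edgeR) or upper quartiles (adjusted p = 0.143 in edgeR), the stricter filter on low counts (adjusted p = 0.0649 in edgeR) and DESeq2 (adjusted p = 0.0588). Of 19 subunits of the V-ATPase, the proton pump that provides the acid pH cathepsins need, 7 fell and 2 rose, or 36.8% and 10.5%, with a median log2 fold change slightly above 0, at 0.026. Atp6v0b, Atp6v1f and Atp6v0e had log2 fold changes of -0.93, -0.44 and -0.41 (adjusted p of 1.29e-07, 0.000444 and 0.000506 in edgeR), whereas Atp6v0a2 had 0.84 (adjusted p = 1.17e-07 in edgeR). Atp6ap2 (0.22, adjusted p = 0.0410 in edgeR) was the other riser, and its adjusted p was 0.0657 to 0.230 without control replicate 1 or any 1 of the ALX-5407 replicates. The Atp6ap2 call was also lost under RLE scaling (adjusted p = 0.0514 in edgeR), upper quartile scaling (adjusted p = 0.118 in edgeR), the stricter filter on low counts (adjusted p = 0.0559 in edgeR) and DESeq2 (adjusted p = 0.0582).

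Of 16 genes that sort lysosomal enzymes, 7 rose and 2 fell, or 43.8% and 12.5% beside 24.5% and 23.2% of all genes tested, and the median log2 fold change was 0.070 beside 0.0053. Igf2r, the large mannose 6-phosphate receptor that carries cathepsins from the Golgi, went from 180 to 201 CPM over the control libraries to 239 to 257 CPM over the treated ones (log2 fold change 0.40, adjusted p = 0.000238 in edgeR). Nagpa, which uncovers the mannose 6-phosphate tag, rose by 0.72 (adjusted p = 0.000200) and Grn, the progranulin gene, by 0.59 (adjusted p = 1.30e-05 in edgeR). Ap3b1 and Ap3d1, subunits of the AP-3 adaptor, had log2 fold changes of -0.44 and -0.31 (adjusted p of 0.000284 and 0.00253 in edgeR).

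Of 11 tested genes for the MiT/TFE transcription factors and their regulators, 5 rose and 3 fell, with a median log2 fold change of 0.24. These are 45.5% and 27.3%, beside 24.5% and 23.2% of all genes tested. The count of rises was 3 without control replicate 2 or under upper quartile scaling. Tfeb, the factor for which CACGTG elements of lysosomal genes are known, had 327, 282 and 271 reads without and 581, 447 and 520 reads with ALX-5407, a log2 fold change of 0.63 (adjusted p = 0.000897 in edgeR). Flcn, a regulator that keeps TFEB and TFE3 out of the nucleus when amino acids are plentiful, showed a log2 fold change of -0.98 (adjusted p = 1.55e-07 in edgeR). Its partner genes moved apart, with Fnip2 at 1.06 and Fnip1 at -0.43 (adjusted p of 3.79e-05 and 0.00285 in edgeR). Rraga, a Rag GTPase gene, had 0.33 (adjusted p = 0.00454 in edgeR). Zkscan3, a repressor of lysosomal genes, had -0.27 (adjusted p = 0.0118 in edgeR), which was lost without ALX-5407 replicate 1 (adjusted p = 0.0594 in edgeR) or replicate 2 (adjusted p = 0.0573 in edgeR) and with library sizes alone as the scale (adjusted p = 0.0528 in edgeR).

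**Figure D4:**
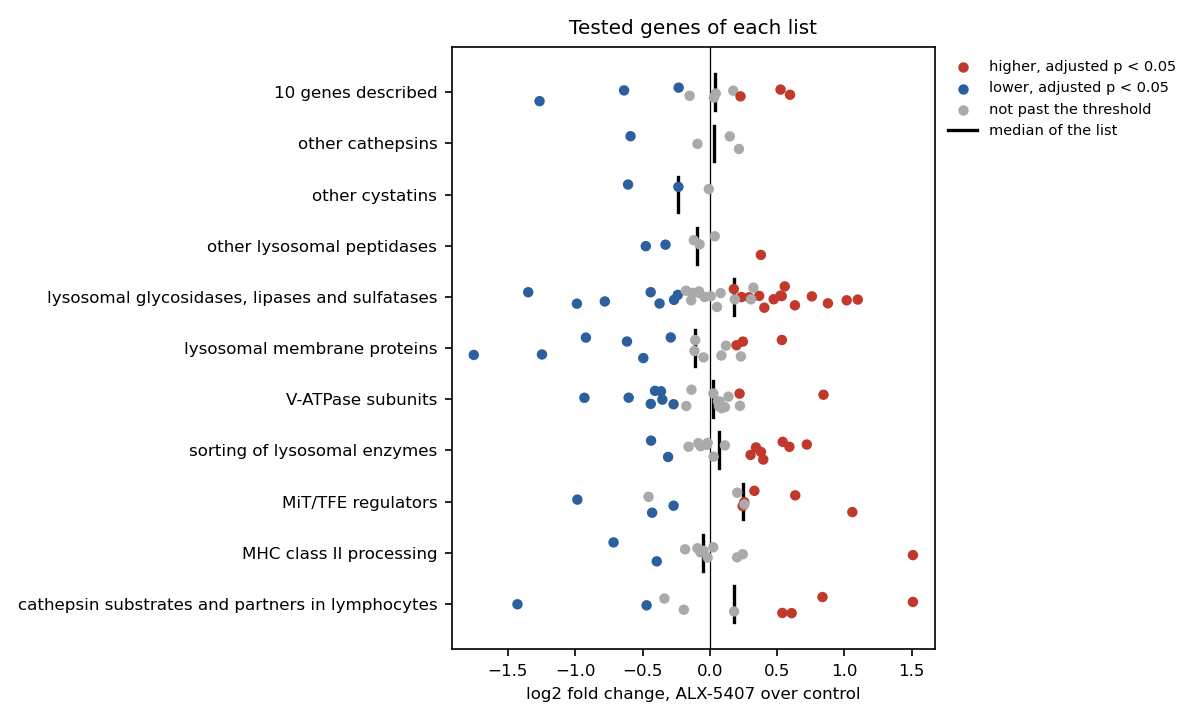
Log2 fold change, ALX-5407 over control (horizontal axis), of each tested gene of the 10 genes described and of 10 other gene lists (rows). Points are genes, coloured red where higher and blue where lower at an adjusted p under 0.05 in edgeR, and the vertical bar is the median of a list, which is 0.037 for the 10 genes and 0.18 for the glycosidases, lipases and sulfatases.

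The partners on which cathepsins act in lymphocytes and antigen-presenting cells were read in the same fit. Of 9 tested, 4 rose and 2 fell, or 44.4% and 22.2% beside 24.5% and 23.2% of all genes tested. Cd74, the invariant chain that Ctss and Ctsl degrade, went from 13.3, 15.6 and 13.4 CPM to 36.7, 39.4 and 44.1 CPM, a log2 fold change of 1.51 (adjusted p = 1.07e-08 in edgeR). Thus Cd74 rose while Ctss fell and Ctsl rose. Gzmb, a granzyme activated by Ctsc, had 794 to 820 CPM in control and 1058 to 1446 CPM in treated libraries, a log2 fold change of 0.61 (adjusted p = 5.50e-05 in edgeR), and the perforin gene Prf1 had 0.84 (adjusted p = 3.17e-07 in edgeR). Gzmc had -1.43 (adjusted p = 4.43e-05 in edgeR). Gzma had -0.47 (adjusted p = 0.0189 in edgeR), which was lost without control replicate 2 (adjusted p = 0.107 in edgeR) or ALX-5407 replicate 2 (adjusted p = 0.0524 in edgeR). Of the 11 MHC class II genes, a list that also holds Cd74, it was the riser and H2-Ab1 (-0.39, adjusted p = 0.00435 in edgeR) and H2-Oa (-0.72, adjusted p = 0.0109 in edgeR) fell. Risers made up 9.09% of this list and fallers 18.2%, beside 24.5% and 23.2% of all genes tested. The other 8 genes of the list did not pass. Among them was H2-Aa (-0.092, adjusted p = 0.818 in edgeR), with 42 to 66 reads in control and 42 to 73 reads in treated libraries. With library sizes alone as the scale, 2 MHC class II genes rose. The H2-Oa call was lost without control replicate 3 (adjusted p = 0.0570 in edgeR) or ALX-5407 replicate 3 (adjusted p = 0.0556 in edgeR). B cells, which carry much Cd74 and MHC class II, had low marker levels. These summed to 3.03 to 3.39 RPKM in control and 3.81 to 5.27 RPKM in treated libraries. Of their 5 markers, 3 rose, or 60% beside 24.5% of all genes tested. The part of B cells in the Cd74 result was not tested.

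The markers of the labelled cell type were abundant in every library. Cd3e, Cd3d, Cd3g, Cd4, Trac, Lck and Cd5 summed to 998 to 1040 RPKM in control and 946 to 971 RPKM in treated libraries. Cd4, Cd3d and Cd3g had log2 fold changes of -0.46, -0.39 and -0.35 (adjusted p of 0.000174, 0.00127 and 0.000622 in edgeR) and Cd5 of 0.24 (adjusted p = 0.0110 in edgeR). Trac, Lck and Cd3e, at 0.0070, -0.020 and -0.23, did not pass. The 6 erythroid and platelet markers summed to 1.35 to 2.3 RPKM in control and 2.98 to 5.35 RPKM in treated libraries. Of 4 tested, Pf4 and Itga2b rose, or 50% beside 24.5% of all genes tested. The rise of Pf4 rested on only 6 to 21 reads in control and 31 to 76 reads in treated libraries. Itga2b had 104 to 131 reads in control and 224 to 279 reads in treated libraries. Alas2 (0.20, adjusted p = 0.754 in edgeR) and Ppbp (1.03, adjusted p = 0.145 in edgeR) did not pass. The globin genes Hba-a1 and Hbb-bs had at most 6 reads and were not tested. Apart from Pf4, the most abundant of the 6 markers, these genes were named after their values were seen. Of the 5 granulocyte markers, Ly6g alone was tested and fell (log2 fold change -1.42, adjusted p = 1.15e-08 in edgeR), while S100a8, S100a9 and Elane had 0 reads in every library. The part of such cells in the results above was not tested.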

How the data were processed

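RNA sequencing counts of 6 cultures were analysed, 3 in each group. Sample titles gave the group and the replicate number. The authors deposited raw counts of reads on 54532 genes, without normalization or pooling, with GRCm38 coordinates and other values such as the gene length in bases. The submitters' processing notes name fastp, HISAT2 2.0.5, featureCounts 1.5.0-p3 and mm10. The strand setting and the handling of reads with several matches were not given in the sources used here. The labels describe poly(A) capture and the study's methods depletion of ribosomal RNA.

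The counts were fitted with edgeR 4.0.16 (R 4.3.3) after filterByExpr (minimum count 10, minimum total 15) and TMM scaling, using the quasi-likelihood F test, two-sided, with Benjamini-Hochberg adjustment. The standard error is the log2 fold change over the square root of F. The common coefficient of biological variation was 0.0978. The procedure was tested on simulated data. Between libraries of the same group, chi-square per degree of freedom was 5.35 to 20.2, above sampling noise, so none was merged. RPKM divides scaled CPM by the deposited gene length. Alternatives were other scalings, filters and thresholds, DESeq2 1.42.0, limma-voom (limma 3.58.1), a replicate block and leaving out each library. Exon overlaps came from GENCODE M21, in which 54495 of the gene identifiers were found, 98.3% of them with the same start and end. Near-identical stretches of at least 100 bases at 95% identity were found with BLAST 2.17.0. Figures were drawn with matplotlib 3.10.9 in Python 3.11.15.

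The 10 genes and all lists were chosen with earlier results of these data known. All 10 genes are named, as are up to 3 genes in each direction with the smallest p in each other list, the CD4 T cell markers, and the most abundant marker of each other cell type where a result touches it. Others are said to have been chosen after their values were seen, apart from markers given beside a result.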

Additional observations from a re-analysis of the deposited data

How the results depend on the processing

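Over the 14 alternative fits, Ctsw, Ctss and Lgmn kept their direction and their side of the threshold. Ctsd lost its call in 2 of them, Ctsl in 3 and Cst3 in 5, and Ctsa and Ctsc gained one in 2 each. Of the 10 genes, 1 to 4 were called higher and 2 to 3 lower when each library was left out in turn. The lowest count, 1 higher, came without control replicate 2 and without ALX-5407 replicate 2, because Ctsd and Ctsl then missed the threshold. Over all genes, 3330 to 3852 were higher and 3220 to 3851 lower with each library left out in turn. With a 2-fold change also required, 0 of the 10 genes were higher and 1 was lower, against 536 and 1064 of all genes. No gene of the 10 was more than 2-fold higher at any p. Ctsb and Ctsz, which did not pass, turned to -0.0232 and -0.00919 on the log2 scale under upper quartile scaling, and with each library left out they ranged from -0.00478 to 0.044 and from -0.0117 to 0.108. DESeq2 called 3653 genes higher and 3533 lower.

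No pairing of the cultures by replicate number was seen, although 3 libraries in each group are too few to settle whether same-numbered cultures share an origin. Correlations of the deviations of same-numbered libraries were -0.0084, 0.00355 and 0.0635, and not every library correlated best with its own number. With a replicate block, 3 of the 10 genes were higher and 3 lower, and 4071 genes were higher and 3833 lower in all. Of 574 refits of the 41 other named genes, 536 kept their call, 38 lost it and 0 changed direction. Of 280 recomputed list counts, 254 stayed within 1.5 times the value given.

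The effect of depth on the calls was not tested. For 8 genes of the other cystatin list, which had no read in any library, no difference was detectable at this depth.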
